A study of Homo sapiens with 12 samples.

Results

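The fatty acid desaturases and elongases described here are 9 genes, taken by symbol from the FADS and ELOVL families among the 60835 symbols of the count and FPKM tables: FADS1, FADS2, FADS3, ELOVL1, ELOVL2, ELOVL4, ELOVL5, ELOVL6 and ELOVL7. They were measured by poly(A) RNA sequencing in LNCaP, a human prostate cancer cell line of luminal, androgen-responsive character. The 12 libraries formed 4 groups of 3, all given by the labels as one batch. They were cells given an shRNA against FOXA1, cells given a control shRNA and labelled as the control of that knockdown, cells given an shRNA against TRIM28, and cells given a control shRNA and labelled as the control of the TRIM28 knockdown. FOXA1 is a pioneer factor that opens chromatin for the androgen receptor in luminal prostate cells. TRIM28 is a corepressor that KRAB zinc finger proteins bring to DNA. All 4 groups carry an shRNA, and neither the time after its delivery nor the number of different shRNAs per target is given in the sources used here. The study compared each knockdown with its own control to find genes that depend on either factor. The 9 genes were selected on their family and with their measured log2 fold changes in both knockdowns known, so their values in those comparisons are given as a description with no p-value.

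At the endoplasmic reticulum, cells build polyunsaturated fatty acids by alternating desaturation and elongation, and lengthen saturated chains by elongation. FADS2 is the delta-6 desaturase that starts the conversion of the dietary essential fatty acids linoleic and alpha-linolenic acid, ELOVL5 lengthens its product, and FADS1 is the delta-5 desaturase that then yields arachidonic and eicosapentaenoic acid. ELOVL2 lengthens those products further on the way to docosahexaenoic acid, and FADS2 acts again on that route. FADS3 desaturates sphingoid bases. ELOVL1 makes the very long saturated and monounsaturated chains used in sphingolipids, ELOVL4 makes still longer chains, ELOVL6 carries palmitate on to stearate, and ELOVL7 elongates saturated very long chains. ELOVL enzymes catalyse the condensation step of each elongation round, and the later steps are shared. Several of these genes are known targets of SREBP-1, the sterol regulatory element binding protein that drives fatty acid synthesis, and androgen is known to raise lipid synthesis in prostate cells.

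The 3 FADS genes form a cluster on chromosome 11, and the coordinates in the files, in GRCh38, place FADS1 inside the span of FADS2. FADS1 lay at chr11:61799627-61829318 on the minus strand, FADS2 at chr11:61792980-61867354 on the plus strand, and FADS3 at chr11:61873519-61892051 on the minus strand. In the GENCODE release 29 annotation, exons of FADS1 and FADS2 share 490 bases on opposite strands, 4.79% of the exon bases of FADS1 and 4.444% of those of FADS2. Reads from that stretch cannot be told apart between the pair, since no source used here states whether counting used strand. The percentages are of all annotated exon bases, 10230 for FADS1 and 11026 for FADS2. The lengths behind the FPKM were shorter, at 4364 and 5073 bases, and the share of reads from the stretch was not measured. The elongases lay apart from one another and on the minus strand: ELOVL1 at chr1:43363398-43368074, ELOVL2 at chr6:10980759-11044305, ELOVL4 at chr6:79914814-79947553, ELOVL5 at chr6:53267398-53349179, ELOVL6 at chr4:110045846-110199199 and ELOVL7 at chr5:60751791-60844274.

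The sequence before the transcription start is shown for the 3 FADS genes, whose levels were all higher after FOXA1 knockdown, and for ELOVL2 and ELOVL7, whose levels were lower, so that both directions can be read side by side. The stretches come from RefSeq (GRCh38.p14), run 5′ to 3′ on the strand of the gene, and leave out bases that GENCODE annotates as untranslated region; capitals mark CCAAT (the NF-Y box) and GGGCGG (the GC box) on either strand.
FADS2, chr11:61816154-61816255, plus strand: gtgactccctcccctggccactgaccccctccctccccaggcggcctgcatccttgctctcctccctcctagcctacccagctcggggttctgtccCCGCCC
FADS1, chr11:61817198-61817253, minus strand: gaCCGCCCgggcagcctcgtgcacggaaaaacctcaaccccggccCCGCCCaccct
FADS3, chr11:61891546-61891795, minus strand: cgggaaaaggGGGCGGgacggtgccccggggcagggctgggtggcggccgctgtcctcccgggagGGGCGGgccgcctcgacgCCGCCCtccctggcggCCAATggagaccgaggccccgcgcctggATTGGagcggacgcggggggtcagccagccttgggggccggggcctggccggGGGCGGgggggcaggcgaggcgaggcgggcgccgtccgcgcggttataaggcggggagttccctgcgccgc
ELOVL2, chr6:11044315-11044555, minus strand: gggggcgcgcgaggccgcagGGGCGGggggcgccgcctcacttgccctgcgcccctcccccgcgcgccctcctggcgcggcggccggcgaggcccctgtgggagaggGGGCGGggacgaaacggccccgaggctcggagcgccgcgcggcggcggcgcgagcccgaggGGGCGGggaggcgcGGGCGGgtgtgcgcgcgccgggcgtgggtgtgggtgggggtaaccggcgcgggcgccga
ELOVL7, chr5:60844390-60844519, minus strand: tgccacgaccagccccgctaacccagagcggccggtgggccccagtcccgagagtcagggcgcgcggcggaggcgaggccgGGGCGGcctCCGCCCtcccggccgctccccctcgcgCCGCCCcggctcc

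In the 250 bases before the RefSeq start, searched on both strands, GC boxes stood before both sets of genes, with 4 before FADS3, 4 before ELOVL2 and 4 before ELOVL7, 2 before FADS1, and 1 before the FADS2 start whose sequence is shown and 0 before its other RefSeq start. GGGCGG is held by 42.6% of the 35116 RefSeq promoters of that length. CCAAT, held by 32% of all promoters, was found before FADS3, ELOVL1, ELOVL4 and ELOVL5. The cAMP response element TGACGTCA, held by 1.65%, was found before FADS1 and ELOVL5, and the E-box CACGTG, held by 6.34%, before ELOVL4 and ELOVL5. The forkhead motif TGTTTNC, held by 15.5%, was found before ELOVL6 alone. No letters matching a sterol regulatory element (TCACNCCAC, 0.883% of promoters), an androgen receptor half-site (AGAACA, 12.4%) or a PPAR response element (0.0171%) lay in these windows of the 9 genes. These matches describe the letters of the windows and are no evidence of binding.

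The libraries held 12256092 to 15152890 counts. FOXA1 stood at 28.7% to 29.5% of its control mean in the FOXA1 knockdown libraries, and TRIM28 at 31.9%, 28.2% and 14.0% in replicates 1, 2 and 3 of the TRIM28 knockdown. The TRIM28 knockdown libraries held FOXA1 at 47.1%, 42.6% and 70.1% of its mean in their own control. The FOXA1 knockdown libraries held TRIM28 at 87.9%, 89.7% and 86.8% of its mean in theirs. All 7 prostate luminal markers had counts in every group. They summed to 557 to 576 FPKM in the FOXA1 knockdown against 660 to 681 in its control, a lower sum made by FOLH1 (119 to 126 FPKM against 256 to 262) and KLK2 (96.8 to 103 against 124 to 129), while KLK3, KRT8, TMPRSS2 and HOXB13 were higher without overlap and KRT18 overlapped. In the TRIM28 knockdown the 7 markers summed to 466 to 520 FPKM against 677 to 703 in its control. KLK3, KLK2, TMPRSS2 and HOXB13 were lower there without overlap, while FOLH1, KRT18 and KRT8 overlapped. Replicate 3 of the TRIM28 knockdown stood apart: over genes, its counts differed from replicates 1 and 2 by a chi-square per degree of freedom of 25.8 and 23.3, against 3.12 to 6.31 for every other pair within a group. Its 5 fibroblast markers summed to 68.4 FPKM, with COL3A1 at 34.5 FPKM, against 4.92 and 6.55 FPKM in replicates 1 and 2 and 4.43 to 6.31 FPKM in all other libraries, and KRT8 reached 32.3 FPKM against 8.32 and 9.12 FPKM in those replicates. For the 9 genes, the counts of the other lists and the genes named as called in the TRIM28 knockdown, values without that library are given with the results. Of the 3 basal epithelial markers, KRT14 had 1.49 to 2.05 FPKM in the FOXA1 knockdown against 0.138 to 0.244 in its control, while KRT5 overlapped and TP63 was at or near 0 in both (list sums 1.74 to 2.11 against 0.171 to 0.447). Of the 3 adipocyte markers, PLIN1 had 0.656 to 1.21 FPKM there against 0.183 to 0.309, with ADIPOQ and LEP near 0 (list sums 0.676 to 1.23 against 0.197 to 0.418). The 5 leukocyte markers summed to 0.266 to 0.560 FPKM in the FOXA1 knockdown against 0.578 to 0.998 in its control, and the 3 endothelial markers to 1.29 to 1.35 FPKM in the TRIM28 knockdown against 0.592 to 0.926 in its control, mostly VWF at 1.08 to 1.21 against 0.581 to 0.832. The part of these marker differences in the results was not tested. In bulk RNA, fewer cells of a type and less RNA per cell cannot be told apart.

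In the 6 control libraries the elongation of polyunsaturated chains was the most abundant step at the RNA level. Per length, ELOVL5 averaged 250 ± 6.1 FPKM (SD, n = 6), followed by FADS2 at 66.6 ± 3.4, ELOVL1 at 57.6 ± 2.9, ELOVL7 at 34.8 ± 1.6, FADS1 at 25.0 ± 1.3 and ELOVL2 at 19.0 ± 0.58 FPKM. FADS3 at 3.34 ± 0.20, ELOVL4 at 1.28 ± 0.15 and ELOVL6 at 0.626 ± 0.16 FPKM were the lowest. The ranges of neighbours in this order did not overlap in these 6 libraries. ELOVL3, an elongase outside the 9 genes, had 0 counts in 11 libraries and 3 counts in replicate 3 of the TRIM28 knockdown, too few to be tested.

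The FOXA1 control and the TRIM28 control received the same kind of treatment, and none of the 9 genes was called between them, beside 0% of 14839 genes called in either direction (edgeR's quasi-likelihood test, Benjamini-Hochberg adjusted over all genes, threshold 0.05). The 9 log2 differences, FOXA1 control over TRIM28 control, ran between -0.27 ± 0.24 for ELOVL6 and 0.08 ± 0.06 for ELOVL2 (SE), with adjusted p of 0.992 or above. The libraries of the control groups overlapped for 8 of the 9 genes. ELOVL2 alone was higher without overlap, its lowest FOXA1 control library at 19.04 FPKM against 19.02 FPKM in its highest TRIM28 control library, as were 4.88% of genes, while 4.41% were lower without overlap. At an unadjusted p under 0.05, 635 genes passed by edgeR and 362 by DESeq2, and DESeq2 called 0 after adjustment.

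After FOXA1 knockdown all 3 desaturases of the cluster were higher, FADS2 the most in absolute level. FADS2 had 185, 198 and 194 FPKM in the FOXA1 knockdown libraries, against 70.3, 68.9 and 63.6 FPKM in the control libraries. Every knockdown library lay far above every control library, a 2.82-fold difference (log2 1.49 ± 0.05, SE). FADS1, the next desaturase of the route, had 47.1, 49.5 and 48.9 FPKM in the knockdown against 26.7, 24.6 and 23.9 FPKM in the control. It was 1.92-fold higher (log2 0.94 ± 0.05), less than FADS2, and again with no overlap. FADS3, the sphingoid base desaturase, had 8.63, 9.40 and 8.68 FPKM in the knockdown and 3.08, 3.54 and 3.24 FPKM in the control. Its 2.68-fold difference (log2 1.42 ± 0.09) was close to that of FADS2, at a level below 10 FPKM.

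The elongases split. ELOVL1 had 94.7, 93.3 and 93.3 FPKM in the FOXA1 knockdown libraries against 57.1, 60.9 and 54.2 FPKM in the control libraries, a log2 difference of 0.69 ± 0.05. ELOVL5, the most abundant of the 9, had 302, 297 and 311 FPKM in the knockdown against 239, 257 and 249 FPKM in the control. Its difference was the smallest of those called (log2 0.28 ± 0.04), yet in FPKM it was larger than the whole level of ELOVL7. ELOVL2, which acts after ELOVL5, went the other way, with 8.32, 9.36 and 8.69 FPKM in the knockdown against 19.7, 19.0 and 19.5 FPKM in the control (log2 -1.16 ± 0.07). ELOVL7 was also lower, with 17.4, 16.4 and 16.2 FPKM in the knockdown against 34.2, 34.8 and 33.5 FPKM in the control (log2 -1.05 ± 0.06). ELOVL2 stood at 0.449 times and ELOVL7 at 0.483 times its control level, with no overlap between groups.

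The 2 elongases of low level gave less firm values. ELOVL4, which makes the longest chains, had 88, 67 and 86 counts in the FOXA1 knockdown (1.93, 1.67 and 2.00 FPKM) against 60, 55 and 47 counts in the control (1.42, 1.21 and 1.17 FPKM). Its log2 difference of 0.54 ± 0.19 was called, and the call was lost in the fit of all 12 libraries and without knockdown replicate 1 or 3 or control replicate 2 or 3. ELOVL6, the palmitate elongase, had 0.542, 0.630 and 0.468 FPKM in the knockdown and 0.555, 0.780 and 0.354 FPKM in the control. The control libraries spanned the whole range of the knockdown libraries, and the log2 difference of -0.07 ± 0.25 was not called. In all, 6 of the 9 genes were called higher and 2 lower in the FOXA1 knockdown, beside 26.1% and 26.3% of the 14953 genes tested. The same 8 genes had groups that did not overlap, which 29.5% of genes showed upward and 28.8% downward.

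**Figure D1:**
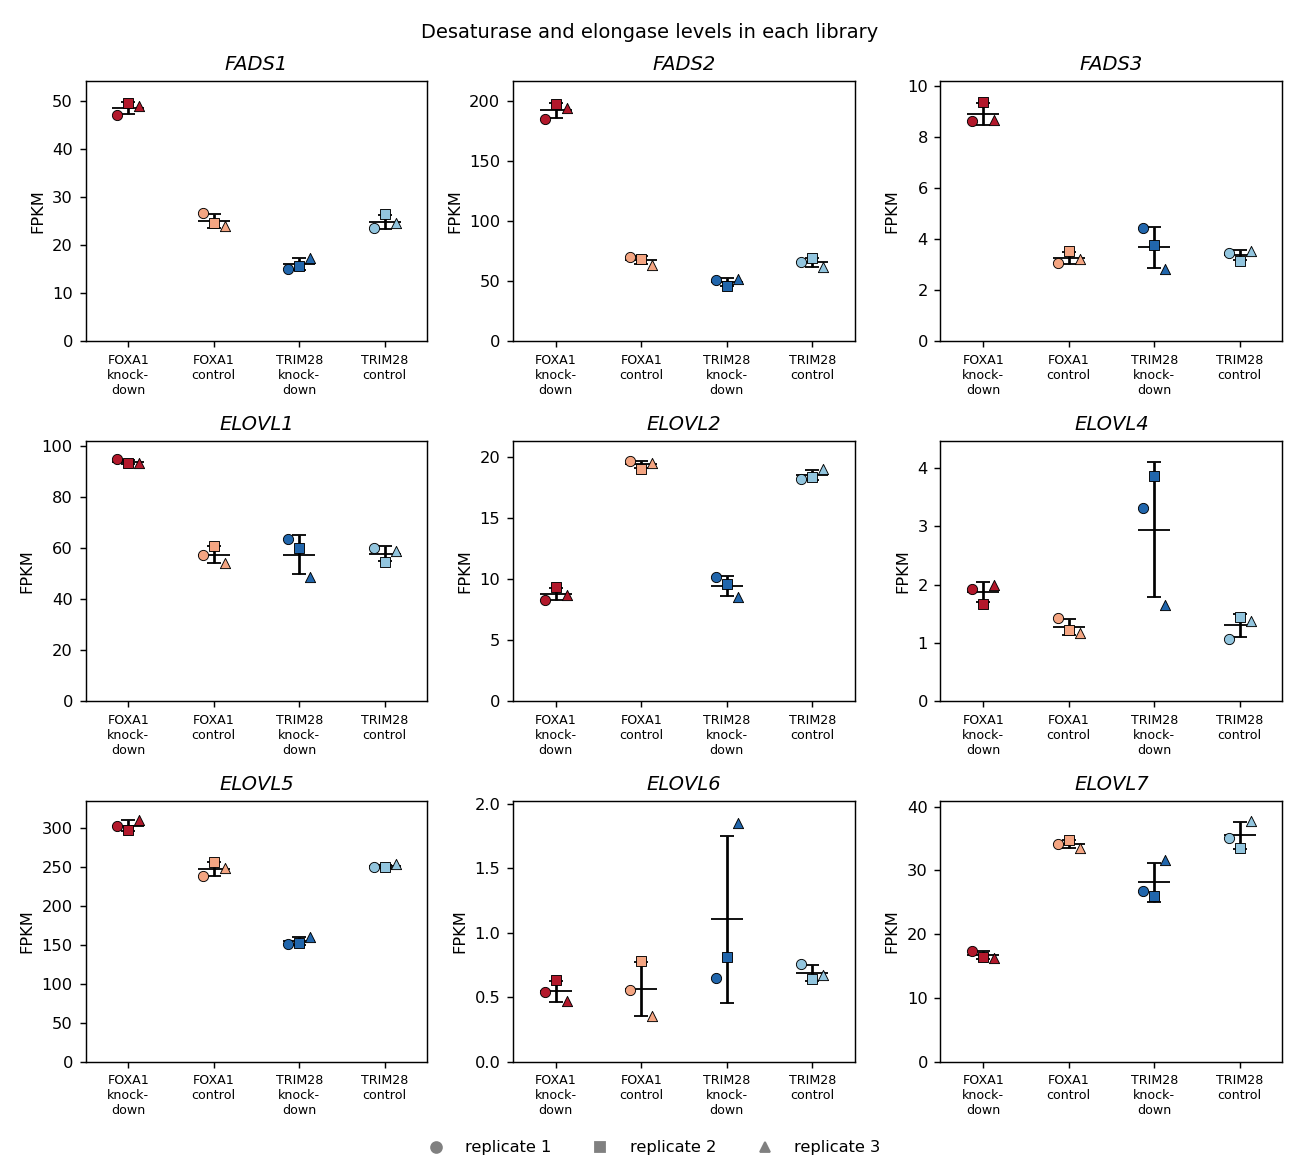
FPKM of each of the 9 genes in the 12 libraries, 1 panel per gene with its own linear axis from 0; symbols are replicates, and the black line and bar are the mean and SD of 3 libraries. FADS2 lies at 185 to 198 FPKM in the FOXA1 knockdown and at 45.9 to 70.3 FPKM elsewhere, ELOVL2 is low in both knockdowns, and replicate 3 of the TRIM28 knockdown departs from its group in ELOVL4 and ELOVL6.

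After TRIM28 knockdown the route to polyunsaturated chains was lower at each of the 4 genes FADS2, FADS1, ELOVL5 and ELOVL2. FADS2 had 51.1, 45.9 and 52.2 FPKM in the TRIM28 knockdown libraries against 66.2, 69.1 and 61.7 FPKM in the control libraries. The groups did not overlap, and the log2 difference was -0.47 ± 0.09 (SE). FADS1 had 15.1, 15.6 and 17.4 FPKM in the knockdown against 23.6, 26.4 and 24.5 FPKM in the control (log2 -0.70 ± 0.10). ELOVL5 had 151, 152 and 160 FPKM in the knockdown against 251, 250 and 254 FPKM in the control (log2 -0.77 ± 0.08). The 3 knockdown libraries lay close together, replicate 3 included, at 0.585 times the control. ELOVL2 had 10.2, 9.58 and 8.57 FPKM in the knockdown against 18.2, 18.4 and 19.0 FPKM in the control (log2 -1.04 ± 0.10), a difference of the size seen in the FOXA1 knockdown. These 4 calls held in every fit that left out 1 library.

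ELOVL7 was lower by a size near that of FADS2, while ELOVL1 and FADS3 were not called. ELOVL7 had 26.8, 26.0 and 31.7 FPKM in the TRIM28 knockdown against 35.1, 33.5 and 37.8 FPKM in the control (log2 -0.41 ± 0.10). ELOVL1 had 63.4, 59.8 and 48.9 FPKM in the knockdown and 60.2, 54.4 and 58.9 FPKM in the control, with replicate 3 the lowest and the groups overlapping (log2 -0.08 ± 0.10, not called). FADS3 had 4.45, 3.79 and 2.84 FPKM in the knockdown and 3.45, 3.17 and 3.53 FPKM in the control. Replicates 1 and 2 lay above and replicate 3 below every control library, and the log2 difference of 0.05 ± 0.16 was not called.

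ELOVL4 and ELOVL6 showed the replicate 3 library most plainly. ELOVL4 had 128, 144 and 61 counts in the TRIM28 knockdown (3.31, 3.86 and 1.65 FPKM) against 45, 61 and 52 counts in the control (1.08, 1.44 and 1.38 FPKM). Its log2 difference of 1.10 ± 0.30 was called, with replicate 3 just above the control libraries. ELOVL6 had 55, 66 and 149 counts in the knockdown (0.651, 0.812 and 1.85 FPKM) against 69, 59 and 55 counts in the control (0.756, 0.640 and 0.669 FPKM). Here replicate 3 alone lay clear of the control libraries, and the log2 difference of 0.62 ± 0.37 was not called. Without replicate 3, which held the fibroblast markers at 68.4 FPKM, the log2 differences were 1.37 for ELOVL4 and -0.00 for ELOVL6, 0.20 for FADS3, 0.00 for ELOVL1 and -0.52 for ELOVL7. For the 4 genes of the polyunsaturated route they were -0.53 for FADS2, -0.78 for FADS1, -0.82 for ELOVL5 and -0.99 for ELOVL2.

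With all libraries, 1 of the 9 genes was called higher and 5 lower in the TRIM28 knockdown, beside 13.3% and 13.3% of the 14981 genes tested. The same 6 genes had groups that did not overlap, which 21.6% of genes showed upward and 22.6% downward. Without replicate 3 the counts were again 1 and 5, beside 21.5% and 23.5% of the genes tested in that fit. The calls of ELOVL4 and ELOVL7 were lost without TRIM28 knockdown replicate 1 or 2 or any 1 control replicate, where they ranged between 0.86 and 1.19 and between -0.44 and -0.35 on the log2 scale, and both were kept without replicate 3.

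**Figure D2:**
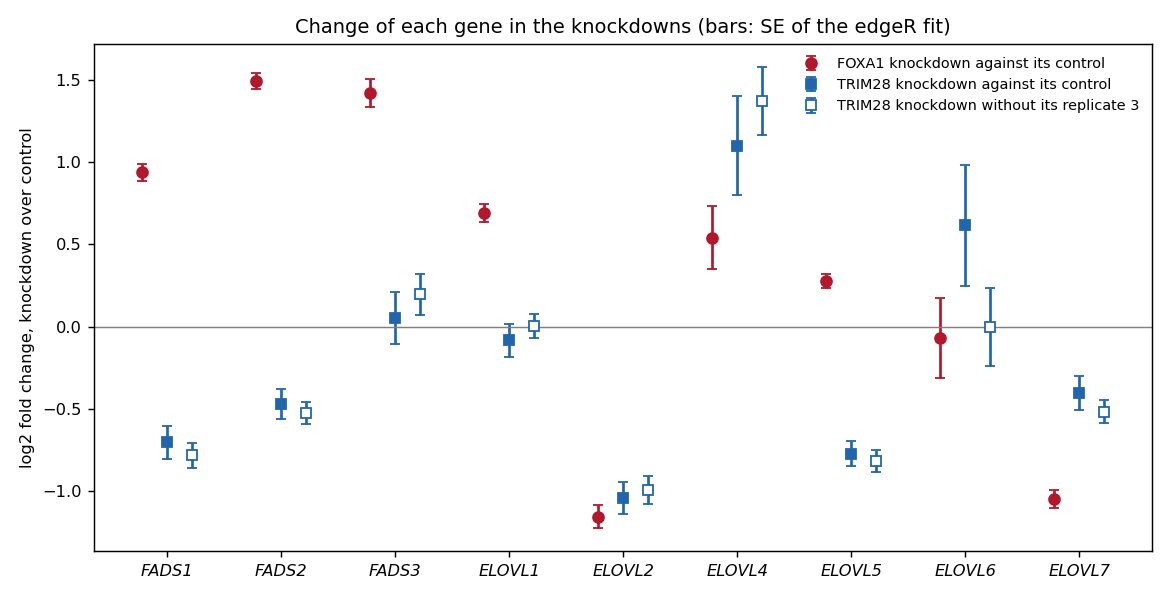
Log2 fold change, knockdown over control, of each gene in the FOXA1 knockdown (red circles), the TRIM28 knockdown (filled blue squares) and the TRIM28 knockdown without its replicate 3 (open squares); bars are SE of the fit. FADS1, FADS2 and ELOVL5 lie above 0 in the FOXA1 knockdown and below 0 in the TRIM28 knockdown, while ELOVL2 and ELOVL7 lie below 0 in both.

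The difference between the knockdown effects, FOXA1 minus TRIM28 in 1 fit of 12 libraries, is given as a description, since the genes were chosen with both effects known. It was past the threshold for 6 of the 9 genes, 5 upward and 1 downward, beside 5.98% and 4.59% of the 15921 genes tested. It was 1.98 ± 0.10 on the log2 scale for FADS2, 1.65 ± 0.11 for FADS1, 1.38 ± 0.17 for FADS3, 1.06 ± 0.08 for ELOVL5 and 0.79 ± 0.11 for ELOVL1 (SE). For ELOVL7, lower in both knockdowns, it was -0.63 ± 0.12, the FOXA1 knockdown having the larger loss. For ELOVL2 it was -0.10 ± 0.11 and not called, the effects being -1.16 in the FOXA1 knockdown and -1.04 in the TRIM28 knockdown. ELOVL6 at -0.67 ± 0.50 and ELOVL4 at -0.55 ± 0.36 were not called. Without TRIM28 knockdown replicate 3 the difference for ELOVL4 was -0.82 and was called, so that 2 genes were then called downward, beside 8.64% of genes, and 5 upward, beside 12.7%.

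The proportions between enzymes of the route were taken as ratios of FPKM within each library. The ratio of FADS2 to FADS1 was 3.93, 3.99 and 3.97 in the FOXA1 knockdown libraries against 2.64, 2.80 and 2.66 in the control libraries. The TRIM28 knockdown libraries had ratios of 3.39, 2.94 and 3.00, against 2.80, 2.61 and 2.52 in their control libraries. Both knockdowns lay above their controls in this ratio, although the level of FADS2 itself was higher in the FOXA1 knockdown and lower in the TRIM28 knockdown. The ratio of FADS2 to ELOVL5 was 0.634 ± 0.027 in the FOXA1 knockdown against 0.273 ± 0.020 in its control, and 0.322 ± 0.018 in the TRIM28 knockdown against 0.261 ± 0.017 in its control (SD, n = 3 each).

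The ratio of ELOVL5 to ELOVL2, the elongases that follow one another, was 34.6 ± 2.5 in the FOXA1 knockdown against 12.8 ± 0.67 in its control. It was 14.8, 15.9 and 18.7 in the TRIM28 knockdown libraries, replicate 3 the highest, against a mean of 13.6 ± 0.22 in the control. ELOVL5 held 71.4% ± 0.56 of the summed FPKM of the 6 elongases in the FOXA1 knockdown against 68.7% ± 0.86 in its control, and 61.0% ± 2.2 in the TRIM28 knockdown against 68.8% ± 0.79 in its control. The summed level of the 6 elongases was 425 ± 6.4 FPKM in the FOXA1 knockdown against 361 ± 11 FPKM in its control, and 254 ± 1.8 FPKM in the TRIM28 knockdown against 365 ± 6.7 FPKM in its control. The 3 desaturases summed to 250 ± 8.0 FPKM in the FOXA1 knockdown against 96.0 ± 4.7 FPKM in its control, and to 69.5 ± 3.7 FPKM in the TRIM28 knockdown against 93.9 ± 4.5 FPKM in its control. With 3 libraries a group an exact permutation test of a single ratio could not reach 0.05, and none was made on genes chosen for their change.

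**Figure D3:**
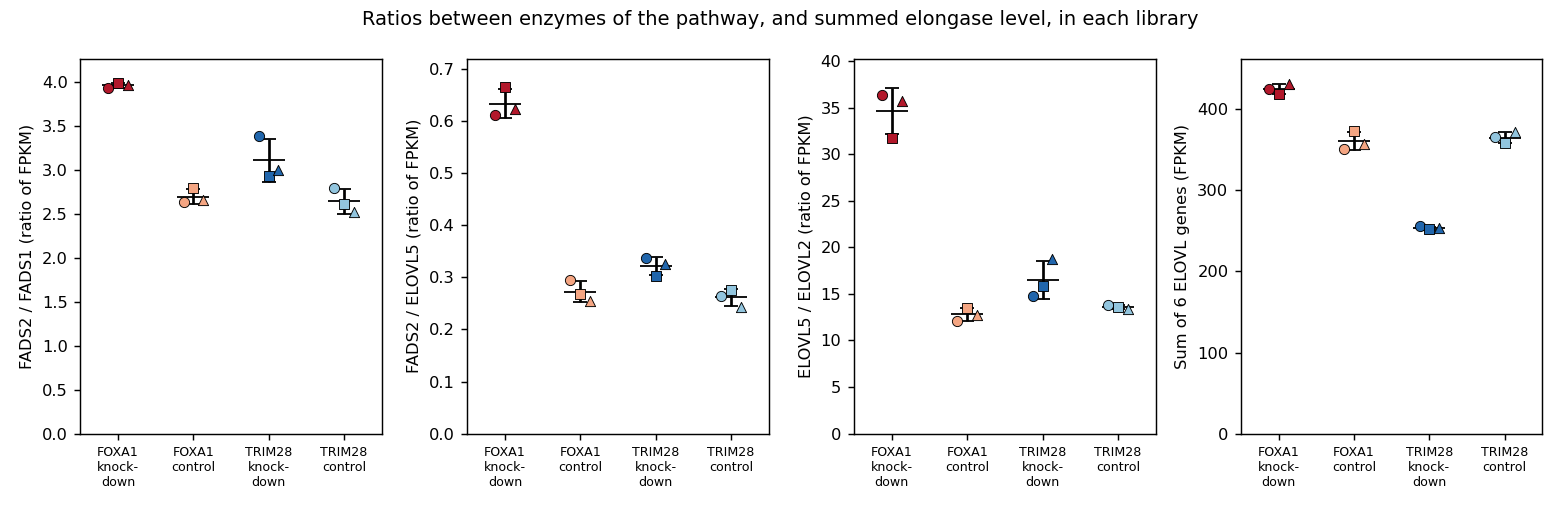
Ratios of FPKM between enzymes of the polyunsaturated route, and the summed FPKM of the 6 elongases, in each library. Symbols are replicates 1 (circle), 2 (square) and 3 (triangle), with the mean and SD of 3 libraries, on linear axes from 0. The ELOVL5 to ELOVL2 ratio averages 34.6 in the FOXA1 knockdown and 12.8 in its control, and the summed elongase level averages 254 FPKM in the TRIM28 knockdown and 365 FPKM in its control.

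Each elongation round is completed by enzymes that all elongases share, and 4 of the 6 listed passed the filter on low counts. HACD2, a dehydratase of the cycle, averaged 88.5 ± 1.2 FPKM in the FOXA1 knockdown against 50.4 ± 2.0 FPKM in its control (SD, n = 3 each), a log2 rise of 0.80 with an adjusted p of 1.27e-14 by edgeR's quasi-likelihood test. HACD3, another dehydratase, rose by 0.23 (adjusted p = 0.000295), and TECR, the reductase of the last step, had -0.08 and was not called. TECR fell after TRIM28 knockdown, to 21.1 ± 0.21 FPKM against 28.2 ± 1.0 FPKM in its control (log2 -0.49, adjusted p = 0.00268; -0.52 without replicate 3), and HACD2 had -0.04. The list counted 2 genes higher and 0 lower in the FOXA1 knockdown, and 0 higher and 1 lower in the TRIM28 knockdown, with and without replicate 3. Its median log2 fold change was 0.08 and 0.01, beside -0.02 and 0.00 over all genes tested. For this list and those below, the shares of all genes called higher and lower were 26.1% and 26.3% in the FOXA1 knockdown. They were 13.3% and 13.3% in the TRIM28 knockdown, and 21.5% and 23.5% there without replicate 3.

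Of the desaturases outside the FADS cluster, SCD, the stearoyl-CoA desaturase that makes oleate, averaged 83.7 ± 6.3 FPKM in the FOXA1 knockdown against 61.4 ± 1.8 FPKM in its control (log2 0.43, edgeR adjusted p = 1.64e-08). DEGS1, the dihydroceramide desaturase, fell in both knockdowns: to 116 ± 2.7 FPKM after FOXA1 knockdown against 181 ± 13 FPKM in its control (log2 -0.66, adjusted p = 4.46e-12), and to 136 ± 6.2 FPKM after TRIM28 knockdown against 189 ± 7.7 FPKM in its control (log2 -0.55, adjusted p = 0.000971; -0.53 without replicate 3). Its paralog DEGS2 had 147, 135 and 140 counts in the FOXA1 knockdown, 2.58 ± 0.063 FPKM against 0.232 ± 0.082 FPKM in its control (log2 3.44, adjusted p = 2.9e-13). SCD5 rose by 0.43 (adjusted p = 0.028), a call lost with DESeq2, in the fit of all 12 libraries and without knockdown replicate 3 or control replicate 2 or 3. SCD had 0.28 in the TRIM28 knockdown with an adjusted p of 0.063, and it was called in 5 of the alternative fits, among them the one without replicate 3 (0.19). The list counted 3 higher and 1 lower of 4 tested in the FOXA1 knockdown, with a median of 0.43, and 0 higher and 1 lower in the TRIM28 knockdown, with a median of 0.29. Without replicate 3 the TRIM28 counts were 2 and 1.

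The desaturases draw electrons through cytochrome b5 and its reductases. In the FOXA1 knockdown 4 of these 6 genes were called higher and 1 lower, beside 26.1% and 26.3% of all genes tested. Their median log2 fold change was 0.25. CYB5A, the microsomal cytochrome b5, had 27.8 to 29.8 FPKM in the FOXA1 knockdown against 24.1 to 25.4 FPKM in its control (log2 0.22, edgeR adjusted p = 0.000547). After TRIM28 knockdown CYB5A fell to 18.3 ± 2.4 FPKM, against 24.0 ± 0.51 FPKM in its control (log2 -0.46, adjusted p = 0.00766; -0.37 without replicate 3). The reductase genes CYB5R2 and CYB5R3 rose by 0.84 (adjusted p = 2.71e-08) and 0.38 (adjusted p = 0.001) in the FOXA1 knockdown. CYB5R1 fell by 0.24 (adjusted p = 0.0198), a call lost with DESeq2 and without knockdown replicate 1 or 2 or control replicate 1. In the TRIM28 knockdown 1 gene was called higher, CYB5R4 at 0.50 (adjusted p = 0.0129; 0.54 without replicate 3), and 1 lower, with a median of -0.08; without replicate 3 the counts were 2 and 2. The CYB5R4 call was lost without control replicate 1 or 3.

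In de novo synthesis, fatty acid synthase makes palmitate, which ELOVL6 elongates. The list also holds OXSM and MCAT, which belong to the mitochondrial pathway. In the FOXA1 knockdown 1 of 9 was called higher and 4 lower, beside 26.1% and 26.3% of all genes tested, with a median of 0.04. ACLY, which makes cytosolic acetyl-CoA from citrate, averaged 128 ± 4.1 FPKM in the FOXA1 knockdown against 159 ± 6.3 FPKM in its control (log2 -0.33, edgeR adjusted p = 2.5e-07). The acetyl-CoA carboxylases ACACA and ACACB fell by 0.26 (adjusted p = 3.32e-05) and 0.51 (adjusted p = 0.000367), and the citrate carrier gene SLC25A1 rose by 0.24 (adjusted p = 0.00272). OXSM was the remaining gene called lower, at -0.23 (edgeR adjusted p = 0.00286). FASN, fatty acid synthase, averaged 55.5 ± 1.4 FPKM in the FOXA1 knockdown against 40.3 ± 7.1 FPKM in its control. Its log2 difference of 0.45 missed the threshold (edgeR adjusted p = 0.058). FASN passed with DESeq2, with no filter, with a replicate block, with all 12 libraries, and without control replicate 2 (0.54) or 3 (0.31). After TRIM28 knockdown 0 of 9 were called in either direction by edgeR or DESeq2 (at an unadjusted p under 0.05, 1 by edgeR and 0 by DESeq2), with a median of -0.11 and FASN at -0.17 (adjusted p = 0.255; -0.09 without replicate 3). Without replicate 3 the counts were 1 higher and 3 lower, OXSM among the latter at -0.32, beside 21.5% and 23.5% of all genes tested.

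Among 15 regulators that respond to sterols and fatty acids, 6 were called higher and 6 lower in the FOXA1 knockdown, with a median of 0.06. Over all genes tested the shares were 26.1% and 26.3%. SREBF1, which encodes SREBP-1, averaged 36.1 ± 2.2 FPKM in the FOXA1 knockdown against 29.1 ± 3.8 FPKM in its control (log2 0.30, edgeR adjusted p = 0.0114). After TRIM28 knockdown it fell to 23.2 ± 1.8 FPKM, against 29.9 ± 1.8 FPKM in its control (log2 -0.44, adjusted p = 0.00544; -0.46 without replicate 3). INSIG1 encodes a protein that retains SREBP in the endoplasmic reticulum. It rose to 27.3 ± 1.0 FPKM in the FOXA1 knockdown, against 17.0 ± 2.0 FPKM in its control (log2 0.67, edgeR adjusted p = 8.13e-09). In the TRIM28 knockdown INSIG1 had -0.03 (-0.10 without replicate 3). SREBF2, the sterol-directed relative of SREBF1, fell by 0.50 in the FOXA1 knockdown (adjusted p = 4.13e-08) and by 0.38 in the TRIM28 knockdown (adjusted p = 0.0129; -0.46 without replicate 3). RXRA, the partner receptor of PPARs and LXRs, rose by 0.93 in the FOXA1 knockdown (adjusted p = 5.71e-14), and MID1IP1, an activator of acetyl-CoA carboxylase, fell by 0.90 (adjusted p = 1.98e-11).

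Of the 14 regulators tested in the TRIM28 knockdown, 1 was called higher, PPARA at 0.37 (edgeR adjusted p = 0.0164; 0.38 without replicate 3), and 4 lower, among them SCAP, the escort protein of SREBP, at -0.35 (adjusted p = 0.0189; -0.30 without replicate 3). The median was -0.05, and 13.3% and 13.3% of all genes tested were called. Without replicate 3 the counts were 5 and 5 of 15, beside 21.5% and 23.5% of all genes tested. The calls of SREBF2, SCAP and PPARA were each lost without knockdown replicate 2 and without control replicate 2 or 3, SCAP and PPARA also without control replicate 1. The difference between the knockdown effects, FOXA1 minus TRIM28, was 0.75 ± 0.12 for SREBF1 (adjusted p = 0.000725), 0.71 ± 0.13 for INSIG1 (adjusted p = 0.00166) and 0.63 ± 0.16 for FASN (adjusted p = 0.0183). For SCD it was 0.16 ± 0.11 and was not called (adjusted p = 0.4).

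The enzymes that use the products showed changes in both directions. LPCAT1, a lysophospholipid acyltransferase, rose in both knockdowns, to 11.9 ± 0.89 FPKM after FOXA1 knockdown against 5.34 ± 0.49 FPKM in its control (log2 1.14, edgeR adjusted p = 4.37e-13), and to 12.6 ± 2.3 FPKM after TRIM28 knockdown against 5.48 ± 0.83 FPKM in its control (log2 1.13, adjusted p = 0.000884; 1.26 without replicate 3). ACSL3, an androgen-responsive acyl-CoA synthetase, fell to 32.4 ± 0.82 FPKM in the FOXA1 knockdown, against 44.9 ± 1.9 FPKM in its control (log2 -0.48, adjusted p = 5.57e-10), and had -0.16 in the TRIM28 knockdown (adjusted p = 0.192), where without replicate 3 it was called at -0.24. ACSL5 had 102, 79 and 108 counts in the FOXA1 knockdown (log2 3.60, adjusted p = 1.15e-11). It had 22, 24 and 105 counts in the TRIM28 knockdown (log2 2.81, adjusted p = 0.027; lost without any 1 control replicate), replicate 3 being the highest. Without that library the log2 difference of ACSL5 was 1.63 and was called (adjusted p = 0.00684). ACSL1 rose by 0.31 in the FOXA1 knockdown (adjusted p = 9.82e-07), and MBOAT2 had -0.26 in the TRIM28 knockdown (adjusted p = 0.0471; -0.23 without replicate 3), a call lost in 7 of the alternative fits. Of 11 synthetase and remodelling genes tested, 4 were called higher and 3 lower in the FOXA1 knockdown (median 0.08), and 2 higher and 1 lower in the TRIM28 knockdown (median -0.01); without replicate 3 the TRIM28 counts were 4 and 2.

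Very long chains are shortened in peroxisomes. In the FOXA1 knockdown 4 of 6 tested genes of that path were called higher and 1 lower, with a median of 0.30. Over all genes tested the shares were 26.1% and 26.3%. ABCD3, a peroxisomal transporter, averaged 38.9 ± 0.92 FPKM in the FOXA1 knockdown against 21.5 ± 1.6 FPKM in its control (log2 0.84, edgeR adjusted p = 2.92e-13). The multifunctional enzyme gene HSD17B4 fell by 0.34 (adjusted p = 1.09e-06). After TRIM28 knockdown 2 were called higher and 1 lower, with and without replicate 3, with a median of 0.03. ABCD3 had 0.26 (adjusted p = 0.0493; 0.23 without replicate 3) and HSD17B4 -0.27 (adjusted p = 0.033; -0.28 without replicate 3), calls that were lost in 7 and 5 of the alternative fits. Of the ceramide synthases, which take up the chains made by ELOVL1, CERS2 fell to 36.0 ± 0.47 FPKM in the FOXA1 knockdown, against 50.6 ± 1.5 FPKM in its control (log2 -0.51, adjusted p = 4.07e-09), while ELOVL1 itself was higher there. CERS2 also fell in the TRIM28 knockdown, by 0.30 (adjusted p = 0.0197; -0.31 without replicate 3; lost without knockdown replicate 2 or control replicate 2 or 3), and CERS6 rose by 0.22 in the FOXA1 knockdown (adjusted p = 0.00087). The 5 ceramide synthases tested counted 1 higher and 1 lower in the FOXA1 knockdown (median 0.15), and 0 higher and 1 lower in the TRIM28 knockdown (median -0.07), where the counts without replicate 3 were 1 and 1.

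**Figure D4:**
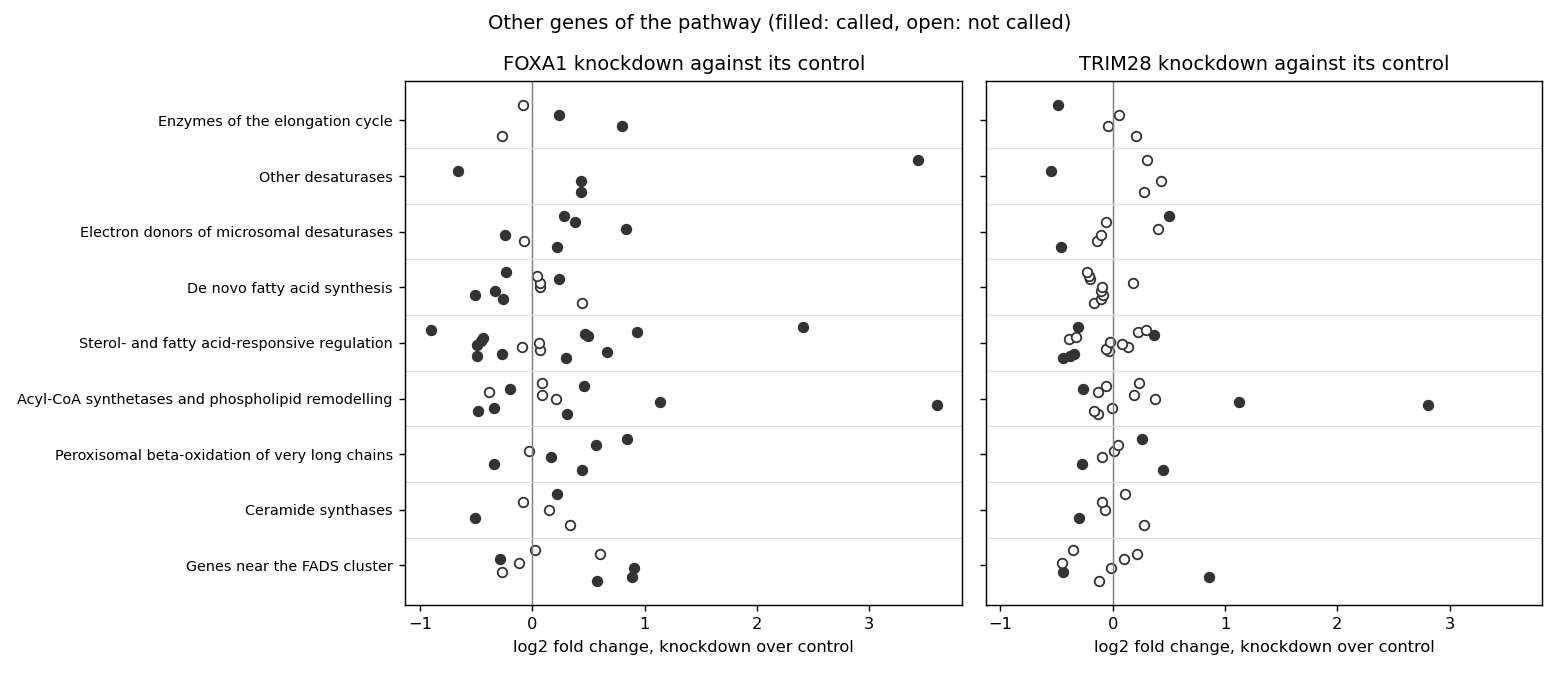
Log2 fold change, knockdown over control, of each tested gene of 9 lists around fatty acid desaturation and elongation, 1 row per list, with the FOXA1 knockdown on the left and the TRIM28 knockdown on the right; filled points were called and open points were not. Called points lie on both sides of 0 within most lists, and DEGS2 and ACSL5 lie farthest right in the FOXA1 knockdown at 3.44 and 3.60.

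Neighbours of the FADS cluster on chromosome 11 were called in both directions in the FOXA1 knockdown. FEN1, a flap endonuclease of DNA replication whose exons share 49 bases with those of FADS2 on the same strand, averaged 64.5 ± 5.1 FPKM in the FOXA1 knockdown against 34.0 ± 3.0 FPKM in its control (log2 0.91, edgeR adjusted p = 9.69e-12). FEN1 averaged 35.9 ± 6.3 FPKM in the TRIM28 knockdown and 34.6 ± 1.8 FPKM in its control, and its log2 difference was -0.02, against -0.19 without replicate 3, neither called. MYRF, a membrane-bound transcription factor, rose in both, to 1.44 ± 0.090 FPKM after FOXA1 knockdown against 0.771 ± 0.032 FPKM in its control (log2 0.89, adjusted p = 3.86e-05), and to 1.24 ± 0.32 FPKM after TRIM28 knockdown against 0.652 ± 0.057 FPKM in its control (log2 0.86, adjusted p = 0.0242; 0.63 without replicate 3; lost without knockdown replicate 2 or any 1 control replicate). DAGLA, a diacylglycerol lipase, rose by 0.58 in the FOXA1 knockdown (adjusted p = 0.00219). BEST1 had -0.28 there (adjusted p = 0.0269), a call lost in 6 of the alternative fits, and TMEM258 had -0.45 in the TRIM28 knockdown (adjusted p = 0.0443; -0.45 without replicate 3), a call lost in 5 of them. Of 8 neighbours tested, 3 were called higher and 1 lower in the FOXA1 knockdown (median 0.30), beside 26.1% and 26.3% of all genes tested. In the TRIM28 knockdown 1 was called higher and 1 lower (median -0.07), beside 13.3% and 13.3%. Without replicate 3 the TRIM28 counts were 1 and 3, beside 21.5% and 23.5%.

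The pattern of FADS2 over the 12 libraries was most like those of HSD11B2, PIM1, TSPAN13 and AMOT, among 10715 genes averaging 5 CPM or more (counts scaled to library size with TMM factors). Likeness was the root mean square difference of log2 CPM after centring each gene, a description over 12 libraries in 4 groups, and it was 0.14, 0.17, 0.18 and 0.19 for these genes. HSD11B2 had a log2 fold change of 1.38 in the FOXA1 knockdown and -0.49 in the TRIM28 knockdown. TSPAN13 had 1.70 in the FOXA1 knockdown and -0.24 in the TRIM28 knockdown. In the TRIM28 knockdown HSD11B2 and PIM1 were called lower, while TSPAN13 and AMOT were not called. Within the family FADS1 came nearest to FADS2, at rank 13 with 0.24, then FADS3 at rank 35 with 0.31, ELOVL1 at rank 148 and ELOVL5 at rank 256. ELOVL2 ranked 10360 and ELOVL7 ranked 10467, near the far end.

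ELOVL7 was most like MYCBP2, PTPN13, MIOS and TBC1D4, with root mean square differences of 0.081, 0.088, 0.090 and 0.092 log2 units. MYCBP2 had a log2 fold change of -1.17 in the FOXA1 knockdown and -0.39 in the TRIM28 knockdown, beside -1.05 and -0.41 for ELOVL7. PTPN13 had -1.14 in the FOXA1 knockdown and -0.47 in the TRIM28 knockdown. ELOVL2, the other elongase lower in both knockdowns, ranked 1470 for likeness to ELOVL7, at 0.32 log2 units.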

How the data were processed

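Poly(A) RNA of LNCaP cells was sequenced in 12 libraries, 3 in each of 4 groups, which were taken from the titles and treatments. The titles call the knockdown libraries SH control and their value columns are headed SI. They were read as knockdowns from their treatment, an shRNA against the gene. The control libraries are titled NC control. Some genotype entries name a differently numbered gene and were not used. The authors deposited read counts and FPKM per gene. The builds GRCh38 and hg38 are named per the submitters' processing notes; no source used here names the aligner, the counter or its strand setting. For all 13022 genes with at least 10 counts in every library, dividing counts by library totals and a single gene length gave the deposited FPKM to a relative 0.001, so FPKM carries no correction for composition.

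Counts were tested with edgeR 4.0.16 (TMM scaling, filterByExpr with a minimum count of 10 and a minimum total of 15, quasi-likelihood F test) in R 4.3.3, on the 6 libraries of a comparison, or on all 12 for the difference between effects. A gene was called at a Benjamini-Hochberg adjusted p under 0.05 over all genes tested, and all 9 genes passed the filter in every comparison. SE is that of the log2 fold change in the fit. The alternatives were other scalings, no filter, DESeq2 1.42.0, a replicate block, all 12 libraries in 1 fit, and leaving out each library. The procedure was tested on simulated counts. The design text calls the replicates biological.

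The 9 genes and the lists of other genes were chosen with earlier results of these data known. Named were all 9 genes, from each list up to 4 genes with the smallest adjusted p in each knockdown, SCD, FASN, SREBF1, INSIG1 and ACSL3 in any case, and the 4 genes most like FADS2 and ELOVL7; some genes that this rule names are not reported here. Promoters came from RefSeq (GRCh38.p14), matched by symbol for all 9 genes, and exons from GENCODE release 29. Protein sequences were not used here.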

Additional observations from a re-analysis of the deposited data

Results flagged for a closer look

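For 6 of the 9 genes the difference between the knockdown effects was past the threshold, 5 upward and 1 downward. Over the 15921 genes tested the shares were 5.98% and 4.59%. Without TRIM28 knockdown replicate 3 it was past the threshold for 5 upward and 2 downward, beside 12.7% and 8.64% of genes. The difference is FOXA1 minus TRIM28 on the log2 scale, in 1 edgeR fit of 12 libraries. It was 1.98 for FADS2, 1.65 for FADS1, 1.38 for FADS3, 1.06 for ELOVL5 and 0.79 for ELOVL1, and -0.63 for ELOVL7. The genes were chosen with both effects known, so these values are a description and no independent evidence of a difference. FADS1, FADS2 and ELOVL5 were called in opposite directions in the knockdowns. The share of all genes called in opposite directions was not counted. Whether such calls are more frequent in this family than among all genes was therefore not tested.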

How the results depend on the processing

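The calls of FADS1, FADS2, ELOVL2 and ELOVL5 in both knockdowns, and of FADS3, ELOVL1 and ELOVL7 in the FOXA1 knockdown, held under every alternative run. Leaving out 1 library moved the genes called higher in the TRIM28 knockdown between 0 and 1 of the 9, those called downward in the difference between effects between 1 and 2, and all genes called in the TRIM28 knockdown between 1817 (without control replicate 2) and 6966 (without knockdown replicate 3), against 3993. For the difference it moved all calls between 1176 and 3528 (without TRIM28 knockdown replicate 3), against 1683, and between the controls from 0 up to 2; with no filter 8 genes were called between the controls. Values near 0 changed sign. On leaving out 1 library ELOVL6 ranged between -0.31 and 0.25 in the FOXA1 knockdown. Likewise, in the TRIM28 knockdown FADS3 ranged between -0.10 and 0.20, ELOVL1 between -0.16 and 0.0029, ELOVL6 between -0.0029 and 0.89, DEGS2 between -0.0015 and 0.65 and INSIG1 between -0.0993 and 0.0270. Between the controls FADS1 ranged between -0.0204 and 0.0842, FADS3 between -0.0816 and 0.0180, ELOVL1 between -0.0374 and 0.0394, ELOVL4 between -0.147 and 0.0785, ELOVL5 between -0.0264 and 0.0227 and ELOVL7 between -0.0699 and 0.00505. With library totals in place of TMM, HACD2 had 0.0305 and INSIG1 0.0403 in the TRIM28 knockdown, and ELOVL1 -0.0103 between the controls, where ELOVL5 had 0.00387 with no filter; the cause of these changes was not tested. Library totals also moved the share of calls that were higher to 63.4% from 49.9% in the TRIM28 knockdown and to 40.0% from 56.6% in the difference. The replicate block changed no call of the 9 genes; among the other named genes it added calls of FASN in the FOXA1 knockdown (0.46) and SCD in the TRIM28 knockdown (0.28) and lost those of ABCD3 (0.26) and MBOAT2 (-0.26) there. Its counts of all calls were 7997 against 7840 for the FOXA1 knockdown, 3846 against 3993 for the TRIM28 knockdown and 1579 against 1683 for the difference; libraries with the same number deviated together with correlations between -0.075 and 0.082 only, so the numbers were not taken to pair them. Low counts of ELOVL4 and ELOVL6, at 31 to 149 per library, limit both genes.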
